A study of Mus musculus with 68 samples.

Results

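The papillomas compared here came from mice with many and with an intermediate number of skin tumors. Of 37 FVBBX mice with profiled papillomas, 12 carried more than 7 papillomas at 20 weeks (the susceptible class, 9 to 35 papillomas, median 12.5, 22 arrays) and 19 carried 2 to 7 (the intermediate class, median 4.0, 35 arrays), by the papilloma number in the sample labels. These 31 mice gave 57 of the 68 arrays of the series, and the other 6 mice, with fewer than 2 papillomas, serve only as context. FVBBX mice are the offspring of [SPRET/Ei X FVB/N] animals crossed back to FVB/N, so that each mouse carried its own mixture of alleles of both strains. All mice of both classes, 8 to 12 weeks old at the start, received the initiating carcinogen DMBA and then the promoter TPA on the dorsal back skin for 20 weeks, and no untreated group was part of this comparison. The susceptible class held 5 males and 7 females, and the intermediate class 9 males and 10 females. The coat was agouti in 4 of 12 susceptible and 8 of 19 intermediate mice. The first papilloma appeared after 8 to 12 weeks in susceptible mice (median 10.0) and after 10 to 18 weeks in the 18 intermediate mice with a record (median 14.0). Days alive ran from 179 to 388 in the 10 susceptible mice with a record (median 247) and from 201 to 334 in 18 intermediate mice (median 284.5). A carcinoma was also profiled for 12 of 12 susceptible and 14 of 19 intermediate mice.

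DMBA mutates Hras in single epidermal cells, and repeated TPA drives the clonal growth of such cells into papillomas, benign outgrowths of keratinocytes on a stalk of connective tissue, vessels and immune cells. A papilloma sample is therefore bulk tissue, in which fewer cells of a type and less RNA per cell cannot be told apart. The number of papillomas in this model is known to depend on many host alleles, some of which act in the keratinocyte and others in immune or stromal cells.

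Expression is given as log2 signal after RMA, and a difference of 1 is a doubling. Values of papillomas from 1 mouse were averaged, so that n counts mice. The comparison covered 21561 probesets (12596 genes) that carry 1 gene symbol and lie above the median of their array in at least 11 of 68 arrays, and array medians lay between 5.19 and 5.29. Xist or the Y-linked gene Eif2s3y went against the sex label in 6 mice, 1 susceptible, 4 intermediate and 1 with fewer than 2 papillomas. The classes were unevenly spread over the 7 start cohorts, with 10 of 12 susceptible but 5 of 19 intermediate mice in cohorts 1 to 3, and only 4 cohorts held both classes. The log2 3'/5' ratio of the Actb control probesets, a measure of RNA degradation, averaged 0.848 ± 0.240 in susceptible and 0.716 ± 0.20 in intermediate mice, and that of Gapdh averaged -0.0291 ± 0.215 in susceptible and -0.180 ± 0.158 in intermediate mice (SD, n = 12 and 19). The part of RNA quality and of start cohort in the differences below was not tested, and fits that include them are given where they change a result.

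A single probeset passed the threshold between the classes. It measures Rnf11, a small RING finger protein that takes part in ubiquitin editing complexes. The probeset of Rnf11 (chromosome 4) lay at 5.62, 5.91 and 6.28 in susceptible mice (lowest, median, highest) and at 4.73, 5.18 and 5.88 in intermediate mice. All 12 susceptible mice lay above the intermediate median, and 7 lay above the highest intermediate mouse. Rnf11 rose in susceptible mice by 0.66 ± 0.11 (SE, 95% interval 0.43 to 0.88, limma, p = 1.15e-06, adjusted p = 0.0247), and the permutation of class over mice gave a two-sided p of 2e-05. It was the 1 call among 21561 probesets, or 0.00464% of those tested, and 0 were called lower. The pair of papillomas of 1 mouse differed by a median of 0.20 at this probeset. Mice with fewer than 2 papillomas averaged 5.24 ± 0.42 (SD, n = 6), beside the intermediate mean of 5.26 ± 0.34 (SD, n = 19).

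The call for Rnf11 rested on 1 of the 4 probesets of the gene. The next one in order of p averaged 6.61 ± 0.30 in susceptible and 6.22 ± 0.43 in intermediate mice (SD, difference 0.39 ± 0.14, SE, unadjusted p = 0.00896). The pair of bright probesets of Rnf11 barely differed, with 11.6 ± 0.22 in susceptible and 11.5 ± 0.35 in intermediate mice for one (SD, difference 0.16, unadjusted p = 0.160) and 11.4 ± 0.22 in susceptible and 11.4 ± 0.34 in intermediate mice for the other (SD, difference 0.08, unadjusted p = 0.495). Within the 4 start cohorts that held both classes, the called probeset of Rnf11 was higher in susceptible mice by 0.71, 1.12, 0.74 and 0.24 (cohorts 1, 2, 6 and 7), with 5, 2, 1 and 1 susceptible mice against 1, 4, 8 and 3 intermediate mice. With start cohort as a fixed block the difference was 0.77 with an adjusted p of 0.331, and leaving out single mice moved the adjusted p between 0.00453 and 0.0845, above the threshold in 13 of 31 cases.

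**Figure D1:**
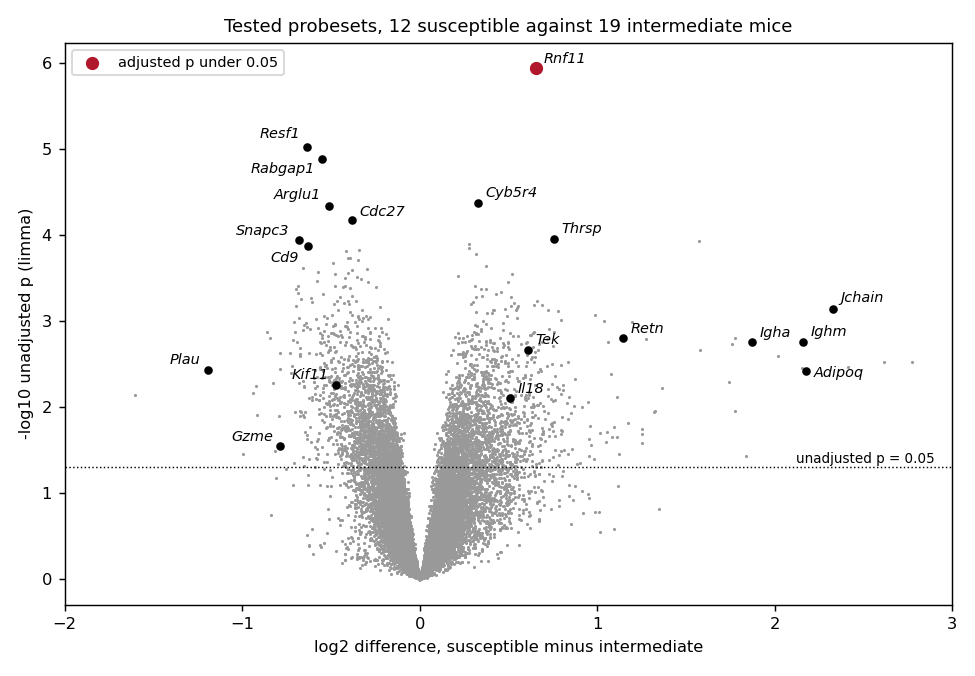
The log2 difference, susceptible minus intermediate (x axis), is plotted against -log10 of the unadjusted limma p (y axis) for each tested probeset, with named genes in black at their probeset of smallest p and the dotted line at an unadjusted p of 0.05. Rnf11 (red) is the 1 probeset past the adjusted threshold, while immunoglobulin genes and Adipoq lie far to the right at larger p.

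Below the threshold many more probesets differed weakly. Of the tested probesets 1748 (8.11%) were higher and 1851 (8.58%) lower in susceptible mice at an unadjusted p under 0.05, 16.7% in all, and 1120 had an adjusted p under 0.20. Of any size, 47.8% of tested probesets were higher and 52.2% lower, with a median difference of -0.0067. Large differences lay almost all on the higher side, with 42 probesets (0.195%) at least 1 higher and 2 (0.00928%) at least 1 lower on the log2 scale. The shares at an unadjusted p moved with single animals, and without susceptible mice 30, 31 and 36 in turn 12.5%, 11% and 11.3% of probesets had an unadjusted p under 0.05. With the control ratios as covariates that share was 8.77%. Mouse 36 had the most papillomas of all, 35, and was represented by 1 papilloma.

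Among the genes next in order on the higher side, Thrsp, a regulator of lipid synthesis in liver, fat and sebocytes, had the largest difference. One of its probesets lay at 3.56, 5.74 and 8.41 in susceptible mice and at 3.45, 3.91 and 5.09 in intermediate mice (lowest, median, highest). Of 12 susceptible mice 8 lay above every intermediate mouse, and the other 4 lay within the intermediate range. Every intermediate mouse lay below the lowest array median at this probeset, which exceeded the array median in only 17 of 68 arrays and so passed the filter mainly through the class where it is high. The difference was 1.57 ± 0.36 (SE, unadjusted p = 0.000116) there and 0.76 ± 0.17 (SE, unadjusted p = 0.00011, adjusted p = 0.171 by limma) at the next. That next probeset exceeded the array median in only 14 arrays, and its intermediate mean of 4.93 lay below every array median. The filter may thus have kept it, too, through the class where it is high. The third and brightest Thrsp probeset differed by 0.01 (unadjusted p = 0.813), so the probesets of Thrsp disagree.

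The other 10 genes named on the higher side differed by less, from 0.22 for Ints6 to 0.52 for Vgll3, all with an adjusted p of 0.171 by limma. Cyb5r4, a cytochrome b5 reductase, lay at 9.45, 9.60 and 10.1 in susceptible mice and at 9.04, 9.36 and 9.58 in intermediate mice. All 12 susceptible mice lay above the intermediate median of Cyb5r4, and the difference was 0.33 ± 0.07 (SE, permutation p = 1e-05, the smallest that 100000 resamples can give). Snx16, a sorting nexin of endosomes, was higher at all 3 of its probesets, by 0.28, 0.24 and 0.33. Vgll3, a cofactor of TEAD transcription factors, was likewise higher at all 3 of its probesets, by 0.52, 0.41 and 0.60. Mtf2, a subunit that accompanies Polycomb repressive complex 2, was higher by 0.27 at 1 probeset, while its other tested probesets ranged from -0.05 to 0.16. The remaining genes were Grrp1, Ier5, Ints6 of the Integrator complex, the phospholipase Plce1, the adenylate cyclase Adcy4 and the decoy chemokine receptor Ackr2, each higher by 0.22 to 0.50. Other probesets of Ier5 and Ackr2 went the other way, the lowest by -0.30 for Ier5 and by -0.06 for Ackr2. The other probesets of Ints6 differed by 0.04, 0.03 and 0.39.

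On the lower side, Resf1, a silencer of retroviral elements in mouse embryonic stem cells, stood first. The probeset of Resf1 lay at 4.14, 5.03 and 5.66 in susceptible mice and at 5.18, 5.77 and 6.07 in intermediate mice. None of the 12 susceptible mice reached the intermediate median, and 8 lay below every intermediate mouse, with a difference of -0.63 ± 0.12 (SE, limma, adjusted p = 0.0928). The other 3 tested probesets of Resf1 differed by -0.34, -0.46 and -0.14. Rabgap1, a GTPase-activating protein for Rab proteins, differed by -0.55 ± 0.11 (SE, limma, adjusted p = 0.0928) at 1 probeset. Susceptible mice lay there at 5.48, 6.27 and 6.78 and intermediate mice at 6.43, 6.72 and 6.91, while the brightest Rabgap1 probeset differed by -0.01.

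Cd9, a membrane tetraspanin abundant in keratinocytes, was the brightest of the genes on the lower side. It lay at 11.0, 12.0 and 12.8 in susceptible mice and at 12.0, 12.7 and 13.1 in intermediate mice. Only 1 of 12 susceptible mice exceeded the intermediate median of Cd9, and 6 lay below every intermediate mouse (difference -0.63 ± 0.14, SE, limma, adjusted p = 0.171). Snapc3, a subunit of the complex that drives small nuclear RNA genes, differed by -0.68 ± 0.155 (SE), and its other probesets ranged from -0.39 to 0.03. Arglu1 differed by -0.51 at 1 probeset and by -0.05 at the brighter one. Dgcr8, the partner of Drosha in microRNA processing, differed by -0.49 at a dim probeset and by -0.12 and -0.11 at its brighter tested probesets. The other genes on the lower side were Cdc27 of the anaphase-promoting complex, the mitotic genes Kif2c and Aspm, the RNA-binding protein Zfp36l2, Dnajc13 and Etnk1, which differed by -0.34 to -0.42. The brightest probesets of Cdc27, Zfp36l2 and Etnk1 went the other way, by 0.10, 0.14 and 0.19. Those of Dnajc13 and Aspm differed by -0.03 and -0.17. The named probeset of Etnk1 averaged 4.653 in susceptible and 5.045 in intermediate mice, both below every array median. It exceeded the array median in only 15 arrays, so the filter may have kept it through the mice where it is high.

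**Figure D2:**
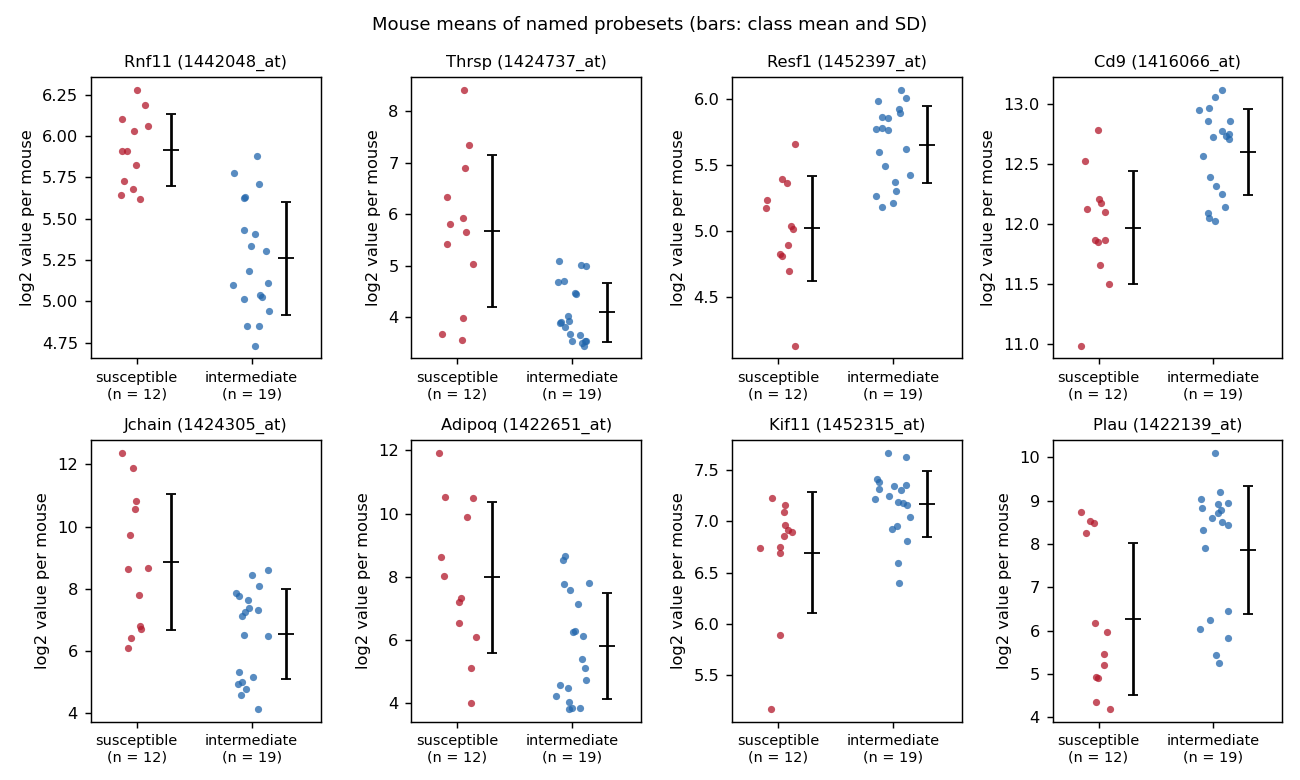
Mean log2 value per mouse (y axes) of 8 probesets in 12 susceptible (red, left) and 19 intermediate mice (blue, right), with bars for the class mean and SD. The classes overlap only in part for Rnf11 and Resf1, susceptible mice spread widely for Thrsp, Jchain and Adipoq, and Plau falls into a high and a low set of mice in both classes.

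The largest differences of all were those of antibody genes, the products of B cells and plasma cells. Jchain, the joining chain of polymeric IgA and IgM, lay at 6.08, 8.65 and 12.4 in susceptible mice and at 4.13, 7.11 and 8.61 in intermediate mice. Of the susceptible mice 7 lay above every intermediate mouse and 8 above the intermediate median. The difference was 2.33 ± 0.62 (SE, 95% interval 1.06 to 3.59, unadjusted p = 0.000726, adjusted p = 0.171 by limma, permutation p = 0.00105). Ighm, the IgM heavy chain, lay at 7.16, 10.2 and 13.3 in susceptible mice and at 6.70, 8.10 and 12.2 in intermediate mice (difference 2.16 ± 0.63, SE, adjusted p = 0.171). Igha, the IgA heavy chain, lay at 8.29, 10.2 and 12.7 in susceptible mice and at 6.07, 8.58 and 11.0 in intermediate mice (difference 1.87 ± 0.55, SE, adjusted p = 0.171). For both heavy chains 5 of 12 susceptible mice lay above every intermediate mouse.

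Of 44 probesets for Jchain and immunoglobulin genes on the array 41 were higher and 3 lower in susceptible mice, with a median difference of 0.52. All 19 that passed the filter on low values were higher, 17 of them at an unadjusted p under 0.05, beside 8.11% of all tested probesets. Some of the 19 averaged below every array median in intermediate mice, such as probesets of Igkv6-14 (3.92), Iglv1 (4.66) and Igkv9-120 (4.47). These exceeded the array median in only 14, 19 and 20 arrays, so the filter may have kept them through the class where they are high. The share among the 19 may therefore be set in part by the filter. Immunoglobulin probesets share sequence and are not independent of each other. The fourth tested gene of the B and plasma cell list, a B cell adaptor, did not move with these (unadjusted p = 0.994). The mean over the 4 genes of the list was 9.87 ± 1.42 in susceptible and 8.28 ± 0.92 in intermediate mice (SD), and 6 susceptible mice lay above every intermediate mouse. That mean was lower by -0.22 in cohort 1, with 1 intermediate mouse, and higher by 1.85, 1.06 and 3.50 in cohorts 2, 6 and 7. Within start cohorts Jchain was higher in susceptible mice by 0.76, 2.93, 1.39 and 4.02 (cohorts 1, 2, 6 and 7), and the difference was 2.31 with cohort as a fixed block and 1.83 with the control ratios as covariates.

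Genes of fat cells were also higher in susceptible mice. All 8 tested genes of the adipocyte list were higher, 5 of them at an unadjusted p under 0.05 (62.5%, beside 8.11% of all tested probesets), with a median difference of 0.76, and 0 were lower. Adipoq, the hormone adiponectin, lay at 4.02, 7.68 and 11.9 in susceptible mice and at 3.82, 5.39 and 8.67 in intermediate mice, a spread that runs from below the array median to very high within the susceptible class. Its difference was 2.18 ± 0.70 (SE, unadjusted p = 0.0038, adjusted p = 0.178 by limma). Retn, the fat hormone resistin, differed by 1.15 ± 0.33, the lipoprotein lipase gene Lpl by 1.08 ± 0.45, and Cidec, a lipid droplet protein, by 0.84 ± 0.26 (SE). Of 12 susceptible mice 7 lay above every intermediate mouse for Cidec. Cidec was dim, with an intermediate mean of 4.20, below every array median. It exceeded the array median in only 13 arrays, where the filter asks for 11. The filter may thus have kept Cidec through the class where it is high, so its place among the 5 genes adds little. Thrsp belongs to the same list and was counted there by its brightest probeset, the one that did not differ. The papillomas of 1 mouse differed by a median of 1.24 for Adipoq. Without mouse 36, 3 of the 8 genes were higher at an unadjusted p under 0.05.

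Genes of vessels, connective tissue and muscle followed in the same direction. Of 15 tested endothelial genes 13 were higher and 2 lower, 8 of them higher at an unadjusted p under 0.05 (53.3%, beside 8.11% of all tested probesets), with a median of 0.26. The endothelial list mean differed by 0.88, 0.23, -0.14 and 0.63 within start cohorts 1, 2, 6 and 7. Tek, the angiopoietin receptor, lay at 5.54, 6.51 and 7.68 in susceptible and at 5.30, 5.94 and 6.79 in intermediate mice (difference 0.61 ± 0.18, SE, unadjusted p = 0.00214). Vwf, the von Willebrand factor, differed by 0.54 ± 0.19, the tight junction gene Cldn5 by 0.44 ± 0.17 and the lymphatic marker Lyve1 by 0.95 ± 0.40 (SE). All 21 tested fibroblast and matrix genes were higher, though only 3 at an unadjusted p under 0.05 (14.3%, beside 8.11% of all tested probesets), namely Mfap5 (0.80 ± 0.36), Dpt (0.68 ± 0.29) and Eln, the elastin gene (0.49 ± 0.21, SE). The other probesets of Mfap5 and Eln differed by 0.34 and 0.08. Without mouse 31, 0 of the fibroblast genes, and without mouse 29 or mouse 36 only 1, had an unadjusted p under 0.05. Within start cohorts the fibroblast list mean differed by 1.44, -0.13, -0.13 and 0.37 (cohorts 1, 2, 6 and 7), and the first of these rests on 1 intermediate mouse.

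Striated muscle genes, which belong to the muscle layer beneath the skin, were higher for 22 of 23 tested genes. Only 3 had an unadjusted p under 0.05 (13.0%, close to the 8.11% of all tested probesets). The mean over this list ran between 5.11 and 8.52 in susceptible mice and between 5.10 and 8.17 in intermediate mice, so both classes held samples with much and with little muscle RNA, and within start cohorts it differed by 1.78, 0.34, 0.24 and -0.22 (cohorts 1, 2, 6 and 7). Myl1, Myh1, Acta1 and Tnnc2 differed by 0.99 to 1.12 without reaching an unadjusted p of 0.05. With the means of the muscle and adipocyte lists as covariates, 2.85% of tested probesets had an unadjusted p under 0.05 and 0 passed the adjusted threshold. Under that fit Jchain differed by 1.69 (unadjusted p = 0.00985) and Tek by 0.28. Adipoq and Thrsp are members of the adipocyte list themselves, so their values under that fit bear on nothing. The part of tissue under the skin in the higher values was not tested.

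**Figure D3:**
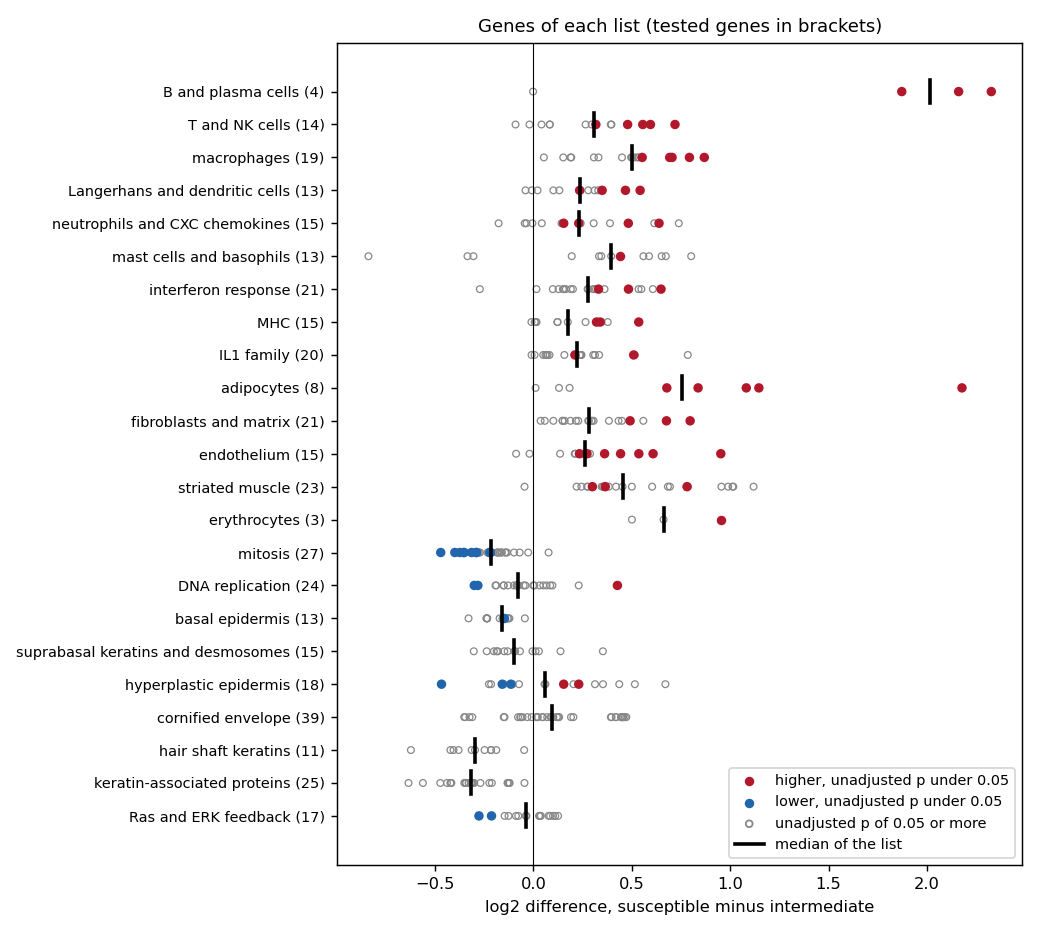
Log2 difference, susceptible minus intermediate (x axis), of each tested gene in 23 lists (rows, tested genes in brackets), filled where the unadjusted p was under 0.05, with the list median as a black bar. Lists of immune, fat, vessel, matrix and muscle genes lie mostly to the right of 0 and mitosis genes mostly to the left, with medians of 2.02 for B and plasma cells, 0.76 for adipocytes and -0.22 for mitosis.

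Genes of other immune cells were higher by smaller steps. Of 14 tested T and NK cell genes 12 were higher and 2 lower, with a median of 0.31. Of them 5 were higher at an unadjusted p under 0.05 (35.7%, beside 8.11% of all tested probesets). The mean over these 14 genes was higher in cohorts 1, 2 and 6 (0.49, 0.44 and 0.19) but not in cohort 7 (-0.05). Cd3d, a chain of the T cell receptor complex, lay at 5.59, 6.28 and 8.47 in susceptible and at 5.08, 5.78 and 6.77 in intermediate mice (difference 0.72 ± 0.23, SE, unadjusted p = 0.00329, adjusted p = 0.174 by limma). The costimulator Icos differed by 0.60 ± 0.19 and the NK cell receptor chain Klrd1 by 0.56 ± 0.22 (SE). The other probesets of Icos differed by 0.49 and 0.04. Il7r, the receptor chain for IL7 and TSLP, differed by 0.70 ± 0.26 (SE). Without mouse 31 or mouse 36, 3 of the 14 genes had an unadjusted p under 0.05. For each of the genes named here at least 10 of 12 susceptible mice lay above the intermediate median.

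All 19 tested macrophage genes were higher, 5 of them at an unadjusted p under 0.05 (26.3%, beside 8.11% of all tested probesets, median 0.50). Aif1, a marker of macrophages, lay at 6.66, 7.82 and 9.74 in susceptible and at 5.79, 6.84 and 8.61 in intermediate mice (difference 0.87 ± 0.32, SE, unadjusted p = 0.00956). Lyz2, macrophage lysozyme, differed by 0.79 ± 0.32 and the signalling adaptor Tyrobp by 0.69 ± 0.28 (SE). Cd68, Csf1r and Cd163, further macrophage genes, differed by only 0.15 to 0.19. The macrophage differences varied between start cohorts, where the list mean differed by 1.26, 0.19, -0.61 and 0.44 (cohorts 1, 2, 6 and 7), and with cohort as a fixed block 16 of 19 genes were higher and 0 reached an unadjusted p under 0.05.

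Of the neutrophil list the receptor Csf3r differed by 0.64 ± 0.23 and myeloperoxidase, Mpo, by 0.48 ± 0.15 (SE), and 4 of 15 genes were higher at an unadjusted p under 0.05 (26.7%, beside 8.11% of all tested probesets). Mpo was dim, with an intermediate mean of 4.85, below every array median. It exceeded the array median in only 18 arrays, so the filter may have kept it through the mice where it is high. The neutrophil list mean was lower in susceptible mice in 3 of the 4 start cohorts, by -0.09, -0.06 and -0.30 (cohorts 1, 2 and 6), and higher by 0.88 in cohort 7 with its 1 susceptible mouse. With cohort as a fixed block 1 of 15 genes was higher at that p, close to the share of all tested probesets (1257 of 21561). Of 21 tested interferon response genes 20 were higher, beside 47.8% of all tested probesets, but only 3 had an unadjusted p under 0.05 (14.3%, close to the 8.11% of all), led by the GTPase Gbp6 at 0.65 ± 0.20 (SE). H2-DMa, which loads peptides on MHC class II, differed by 0.54 ± 0.19, and the costimulator Cd86 by 0.47 ± 0.16 (SE). Mast cell genes ranged from -0.84 for Mcpt2 to 0.80 for Fcer1a, and 1 of 13 reached an unadjusted p under 0.05 (7.69%, close to the 8.11% of all).

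The IL1 family included Il18, a cytokine that the study lists for susceptibility, and 19 of the 20 tested genes of the family were higher (median 0.22). Only 2 had an unadjusted p under 0.05 (10.0%, close to the 8.11% of all tested probesets). Il18 was bright in all mice, at 10.95, 11.6 and 11.9 in susceptible and at 9.31, 11.2 and 11.8 in intermediate mice. The classes overlapped, and the lowest values were those of 7 intermediate mice. Of 12 susceptible mice 11 lay above the intermediate median of Il18, with a difference of 0.51 ± 0.18 (SE, unadjusted p = 0.0078, adjusted p = 0.191 by limma, permutation p = 0.00737). Il6 differed by 0.78, with an unadjusted p of 0.142.

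Other genes that the study lists for susceptibility divided between both directions, and that list was drawn up on papillomas of these mice, so its direction is no independent evidence. Of 25 tested genes 5 were higher and 2 lower at an unadjusted p under 0.05, with a median of 0.06. These shares were 20.0% and 8.00%, beside 8.11% and 8.58% of all tested probesets, so the lower share was close to that of all. Acer2, an alkaline ceramidase, lay at 6.38, 6.92 and 7.27 in susceptible and at 5.71, 6.46 and 7.13 in intermediate mice (difference 0.42 ± 0.13, SE, unadjusted p = 0.00278). Creg1, a secreted glycoprotein, differed by 0.40 ± 0.16 (SE) at its brighter probeset. Gzme, a granzyme of the cluster on chromosome 14, lay at 3.42, 3.91 and 5.22 in susceptible and at 3.44, 5.12 and 6.95 in intermediate mice, with most susceptible mice below the array medians (difference -0.78 ± 0.34, SE, unadjusted p = 0.0282). Spry2, a feedback inhibitor of Ras and ERK signalling, differed at both of its probesets, by -0.28 ± 0.11 and -0.25 ± 0.12 (SE), and only 1 of 12 susceptible mice lay above the intermediate median at either. Map2k4 and Tslp, which the study lists as higher in susceptible than in resistant animals, showed no such difference from intermediate mice. Map2k4 differed by 0.02 and -0.24 at its probesets (unadjusted p = 0.834 and 0.0729 by limma). Tslp differed by -0.24 ± 0.53 (SE, unadjusted p = 0.662 by limma).

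Some listed genes had probesets that went in opposite directions or only in part. Nrd1, a metalloendopeptidase that lies 4 measured genes from Rnf11 on chromosome 4, differed by 0.25 ± 0.08 (SE, unadjusted p = 0.00349) at its bright probeset and by -0.69 ± 0.20 (SE, unadjusted p = 0.00173) at the dim one. At the dim probeset of Nrd1 susceptible mice lay at 5.90, 6.28 and 6.69 and intermediate mice at 5.91, 7.37 and 7.70. Ddx6, an RNA helicase of processing bodies, differed by -0.66 ± 0.22 and -0.52 ± 0.21 (SE) at its dimmer probesets but by -0.02 at the brightest. Cdkn2c, the cell-cycle inhibitor next to Rnf11, differed by 0.27 ± 0.12 (SE, unadjusted p = 0.0286).

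Mitotic genes were the main group on the lower side. Of 27 tested genes of the mitosis list 26 were lower and 1 higher in susceptible mice, 11 lower at an unadjusted p under 0.05 (40.7%, beside 8.58% of all tested probesets), with a median difference of -0.22. Mitotic genes of the G2 and M phases are commonly bound through a CCAAT box and a cell-cycle homology region, and the promoters of 3 genes on the lower side are shown because both motifs stand in them. The windows span 250 bases before to 50 bases after the annotated start, from RefSeq for GRCm38.p6, read along the gene's strand, all + here: chr19:37376132-37376431 for Kif11, chr7:122159185-122159484 for Plk1 and chr1:139454523-139454822 for Aspm. Capitals mark CCAAT and TTTGAA or their reverse complements ATTGG and TTCAAA, which do not overlap one another here.
Kif11: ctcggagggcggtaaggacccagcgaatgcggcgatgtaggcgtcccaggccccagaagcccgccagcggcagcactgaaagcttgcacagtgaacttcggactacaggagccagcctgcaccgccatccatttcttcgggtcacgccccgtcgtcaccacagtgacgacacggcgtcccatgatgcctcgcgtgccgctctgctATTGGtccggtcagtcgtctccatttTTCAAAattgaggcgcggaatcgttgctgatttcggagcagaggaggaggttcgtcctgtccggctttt
Plk1: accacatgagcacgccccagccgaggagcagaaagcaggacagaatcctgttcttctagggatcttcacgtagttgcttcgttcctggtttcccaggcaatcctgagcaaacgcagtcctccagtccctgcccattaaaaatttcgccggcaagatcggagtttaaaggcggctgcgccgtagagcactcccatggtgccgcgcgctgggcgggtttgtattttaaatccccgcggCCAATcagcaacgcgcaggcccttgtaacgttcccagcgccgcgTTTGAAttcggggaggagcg
Aspm: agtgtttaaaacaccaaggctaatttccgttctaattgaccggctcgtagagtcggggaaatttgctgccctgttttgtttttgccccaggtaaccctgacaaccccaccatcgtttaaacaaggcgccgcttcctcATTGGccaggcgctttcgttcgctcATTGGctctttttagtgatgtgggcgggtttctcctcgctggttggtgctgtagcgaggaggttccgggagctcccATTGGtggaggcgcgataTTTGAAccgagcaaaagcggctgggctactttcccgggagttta

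Of the 27 mitosis genes 24 matched a promoter, of which 20 (83.3%) held CCAAT, 19 (79.2%) TTTGAA and 18 both on either strand, beside 42.1%, 14.4% and 5.69% of the 10120 tested genes with a promoter in the table. Among all genes lower at an unadjusted p under 0.05 both motifs stood in 7.17% of 1185 promoters, and among those higher in 4.71% of 1146. A match of letters is a description of the sequence and shows no binding.

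Kif11, the motor that separates spindle poles, lay at 5.17, 6.88 and 7.23 in susceptible and at 6.40, 7.22 and 7.66 in intermediate mice. Only 1 of 12 susceptible mice lay above the intermediate median, 2 lay below every intermediate mouse, and the difference was -0.47 ± 0.16 (SE, unadjusted p = 0.00547, adjusted p = 0.181 by limma). The other probesets of Kif11 differed by -0.04 and -0.26. Cenpe, a kinetochore motor, lay at 6.62, 7.74 and 7.92 in susceptible and at 7.46, 8.01 and 8.47 in intermediate mice (difference -0.35 ± 0.11, SE, unadjusted p = 0.00284), and no susceptible mouse reached the intermediate median. Kif2c, which depolymerizes microtubules, differed by -0.40, -0.46 and -0.22 at its 3 tested probesets. Plk1, the polo-like kinase, differed by -0.37 ± 0.18 and Kif20a, a kinesin of cytokinesis, by -0.40 ± 0.16 (SE).

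The lower mitotic values leaned on few mice. The list mean was 8.32 ± 0.35 in susceptible and 8.53 ± 0.20 in intermediate mice (SD), with susceptible mice from 7.41 to 8.64 and intermediate mice from 8.05 to 8.98. Without mouse 36 its difference was -0.13 in place of -0.22 and 7 of 27 genes were lower at an unadjusted p under 0.05, and without mouse 30 there were also 7. Within start cohorts the list mean differed by -0.11, -0.46, -0.25 and 0.06 (cohorts 1, 2, 6 and 7). With cohort as a fixed block 2 of 27 genes were lower at an unadjusted p under 0.05, close to the share of all tested probesets (1293 of 21561). Mki67, the proliferation marker, differed by -0.10 (unadjusted p = 0.438). Of 24 DNA replication genes 16 were lower and 8 higher. At an unadjusted p under 0.05 there were 2 lower (8.33%) and 1 higher (4.17%), beside 8.58% and 8.11% of all tested probesets. The 1 higher gene was Ccne2, a cyclin of S phase entry, at 0.43 ± 0.14 (SE).

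Keratinocyte genes differed by small steps, and those of hyperplastic epidermis went in both directions. Of 18 hyperplastic epidermis genes 2 were higher and 3 lower at an unadjusted p under 0.05 (11.1% and 16.7%, beside 8.11% and 8.58% of all tested probesets). The higher genes were S100a8 (0.15) and S100a9 (0.23), alarmins of keratinocytes and neutrophils, and the lower ones the stress keratins Krt6a (-0.16) and Krt6b (-0.11) and the growth factor Hbegf (-0.47). Of 39 cornified envelope genes 0 reached an unadjusted p under 0.05 in either direction (median 0.09), and the same held for 15 suprabasal genes (median -0.10). All 13 basal epidermal genes were lower, by -0.04 to -0.33, with 1 at an unadjusted p under 0.05 (7.69%, close to the 8.58% of all). All 11 hair shaft keratins and all 25 keratin-associated proteins tested were lower, with medians of -0.30 and -0.32, but 0 reached an unadjusted p under 0.05, since these genes varied widely between mice. The mean over hair shaft keratins ran from 5.04 to 7.96 in susceptible and from 5.08 to 8.61 in intermediate mice. Within start cohorts that mean differed by 0.65, -0.93, -0.15 and -0.60 (cohorts 1, 2, 6 and 7), so that its direction was not the same in each.

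Plau, the urokinase that activates plasminogen, had the largest difference on the lower side. One of its probesets lay at 4.19, 5.73 and 8.74 in susceptible and at 5.25, 8.51 and 10.1 in intermediate mice, in a high and a low set in both classes. The low values were more frequent in susceptible mice, of which 2 lay above the intermediate median, and the papillomas of 1 mouse differed by a median of only 0.27. The difference was -1.60 ± 0.56 (SE, unadjusted p = 0.0072, adjusted p = 0.189 by limma), and -1.20 ± 0.38 (SE) at the other probeset. In cohort 1, with 5 susceptible mice and 1 intermediate mouse, Plau went the other way, by 0.68. Further genes on the lower side were Hbegf, a ligand of the EGF receptor (-0.47 ± 0.19), Itgb6, an integrin of activated epithelium (-0.34 ± 0.13), and Gclc, the rate-limiting enzyme of glutathione synthesis (-0.61 ± 0.26, SE). Hbegf differed at 1 of its probesets and by -0.06 at the other.

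A few genes of other lists were higher. Of 15 Notch genes 2 were higher at an unadjusted p under 0.05 (13.3%, close to the 8.11% of all tested probesets), the glycosyltransferase Lfng at 0.39 ± 0.13 and the target gene Hey1 at 0.32 ± 0.10 (SE). Hpgd, which degrades prostaglandins, differed by 0.52 ± 0.16 (SE). Of 15 genes of the prostaglandin and lipoxygenase list, 4 were higher at an unadjusted p under 0.05, Hpgd among them (26.7%, beside 8.11% of all tested probesets). Pparg, the regulator of fat cell and sebocyte differentiation, differed by 0.46 ± 0.21 (SE). Of 8 melanocyte genes only Mitf reached an unadjusted p under 0.05, at 0.47 ± 0.19 (SE), while the pigment genes Dct, Tyrp1 and Pmel differed by -0.15 to -0.21.

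The genes were not evenly spread over chromosomes. On chromosome 14, 125 of 720 tested probesets (17.4%) were higher at an unadjusted p under 0.05, beside 8.11% of all, and 52 (7.22%) were lower. On chromosome 18, 87 of 601 (14.5%) were lower, beside 8.58% of all, and on chromosome 6, 135 of 1099 (12.3%). When the probesets of chromosome 14 were put in gene order and cut into 5 equal parts, 14.7% to 24.3% were higher in each. Neighbouring probesets in a backcross are inherited together and are not independent, and chromosomes were read from a RefSeq table for GRCm38.p6. Around Rnf11 on chromosome 4, the 15 measured genes to either side held 50 probesets, of which 16 (32%) had an unadjusted p under 0.05, 9 higher and 7 lower, beside 16.7% of all tested probesets. Among them Stil, a centriole gene, differed by -0.42, Cmpk1, a nucleotide kinase, by 0.32, and Tal1, a transcription factor of blood and endothelial cells, by 0.71. Of the glucose transporter family gene Slc5a9, 2 probesets were higher and 2 lower at that p, so that directions were mixed within a gene.

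**Figure D4:**
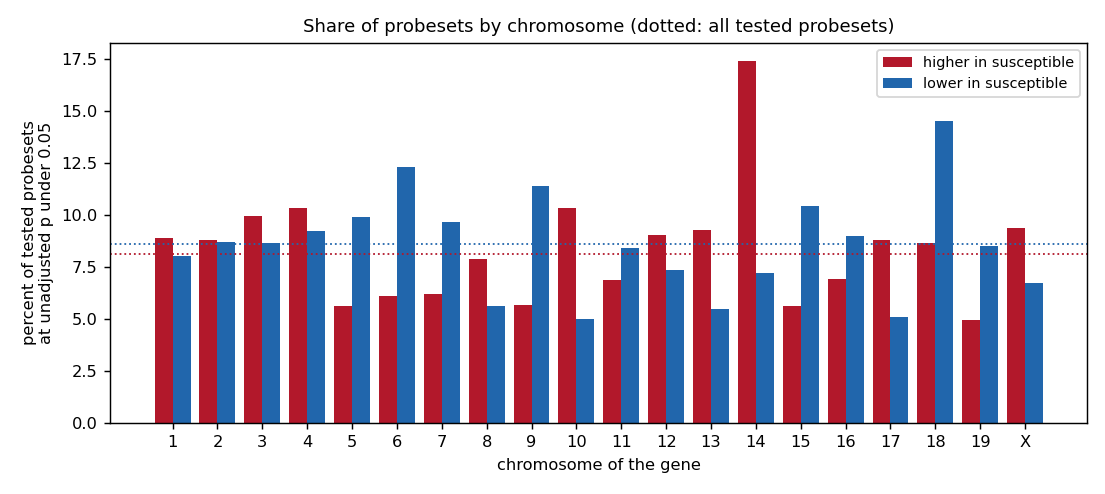
Percent of tested probesets at an unadjusted p under 0.05 that were higher (red, left bars) or lower (blue, right bars) in susceptible mice, by chromosome, with dotted lines at the shares over all tested probesets. Chromosome 14 stands out on the higher side with 17.4% and chromosome 18 on the lower side with 14.5%.

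The class difference was also set against sex and coat color. The interaction of class with sex called 0 probesets (limma, smallest adjusted p = 0.879, 1118 or 5.19% at an unadjusted p under 0.05), and that with coat also 0 (limma, smallest adjusted p = 0.832, 985 or 4.57%). A miss at this number of mice does not show that the difference is the same in both sexes or coats. Sex was taken from the labels, which Xist or Eif2s3y went against in 1 susceptible and 4 intermediate mice.

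The papilloma number itself carried more calls than the class. With log2 of the number at 20 weeks as a slope over the same 31 mice, 1106 probesets (5.13%) passed the adjusted threshold in limma, 297 higher and 809 lower with more papillomas. The slope and the class comparison use the same mice and the same papilloma count, so their signs are not independent. Within the 12 susceptible mice alone 0 probesets passed for the slope in limma (15.7% at an unadjusted p under 0.05), and within the 19 intermediate mice also 0 (5.7%). Jchain was higher by 1.19 ± 0.27 per doubling of papilloma number (SE, adjusted p = 0.0172), Adipoq by 1.18 ± 0.30 (adjusted p = 0.0273) and Retn by 0.68 ± 0.13 (adjusted p = 0.0152). Kif11 was lower, by -0.30 ± 0.06 (SE, adjusted p = 0.0154), and 11 of 27 mitosis genes passed the threshold on the lower side, beside 809 of all 21561 tested probesets. The smallest p was that of Cdc27, a subunit of the anaphase-promoting complex, at -0.21 ± 0.03 per doubling (SE, adjusted p = 0.00858). Without mouse 36, which had 35 papillomas, 0 probesets passed for the slope and 11.4% had an unadjusted p under 0.05. The effect of leaving out any other single mouse on the slope was not tested. With start cohort as a fixed block 0 passed as well, and the same held with the control ratios as covariates. With the class limits applied to the count at 24 weeks, which placed 16 mice above 7 and 18 mice at 2 to 7, 0 probesets passed and 6.14% had an unadjusted p under 0.05.

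**Figure D5:**
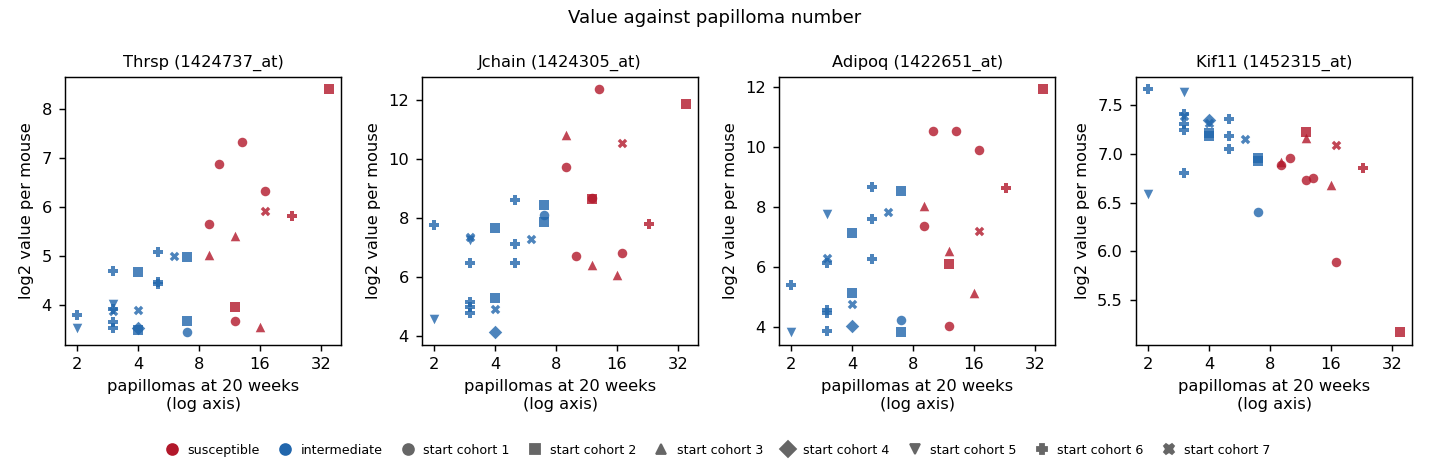
Mean log2 value per mouse (y axes) of Thrsp, Jchain, Adipoq and Kif11 against papillomas at 20 weeks (x axes, log scale) in susceptible (red) and intermediate (blue) mice, with a marker shape per start cohort. The mouse with 35 papillomas has the highest Thrsp and Adipoq and the lowest Kif11 value of all 31 mice.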

How the data were processed

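Papillomas were profiled on Affymetrix Mouse Genome arrays, and the authors deposited them as log2 values after RMA (background correction, quantile normalization and a summary over probes). All 45101 probesets and 68 columns were read. Symbols came from the platform annotation (34945 probesets with 1 symbol, 932 with several, 9160 with none, 64 controls). Tested probesets carry 1 symbol and exceed their array median in at least 11 of 68 arrays. The mouse was the replicate, and its papillomas were averaged. The test between classes was limma (version 3.58.1, run in R 4.3.3) after Benjamini-Hochberg (threshold 0.05) and, for named genes, by 100000 two-sided permutations of class over mice. Python 3.11.15 was used for the rest. The fit was tested on simulated data.

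The genes named are 12 in each direction, past the threshold by largest difference and then by smallest p, each by its probeset of smallest p, with the genes the study names or lists and up to 4 members of largest difference per list. Cd68, Csf1r, Cd163 and Mki67 were added as defining markers after their values were seen. Of 932 entries in 47 lists 830 matched the array. A list counts each gene by its brightest probeset and was not tested as a whole. Comparison, members and lists were chosen with earlier results of these data known. Alternatives covered the filter, annotation, arrays in place of mice, mouse and start cohort as blocks, sex, coat, control ratios, days alive, the time and scale of the papilloma count, and each mouse left out. Those with muscle and adipocyte means, and the variants of the slope, were chosen after seeing the data. Precision is set by the count of mice, and dim probesets hold little signal.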

Additional observations from a re-analysis of the deposited data

How the results depend on the processing

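The count of probesets between the classes was 1 and stayed at 1 without a filter, with the stricter filter, with all annotated and unannotated probesets, with mouse or start cohort as a random block, with the first papilloma, weights, trend and robust priors, sex, sex and coat, control ratios, mice with a profiled carcinoma, and without mice of doubtful sex label, and the call was Rnf11 each time. It was 441 with arrays in place of mice, 2 with all 37 mice in the fit, 1106 with log2 papilloma number as a slope, and 0 with arrays centred on their median, start cohort as a fixed block, days alive as covariate, class limits at 24 weeks, muscle and adipocyte means as covariates, and the slope with start cohort, with control ratios or without mouse 36. Leaving out each mouse gave 0 to 3. Fitting arrays counts papillomas of 1 mouse as independent, and the cause of the other changes was not tested. Both interaction counts stayed at 0. Of 72 named genes run under the alternatives, Lpl (-0.22), Dpt (-0.049) and Eln (-0.012) changed direction with muscle and adipocyte means as covariates, a list that holds Lpl itself, and the other named genes were not run under the alternatives. No mean over a list moved by more than 1 SD between mice, over the alternatives and the mice left out. No paired analysis was possible because each mouse belongs to 1 class and the numbers in the sample titles count papillomas of 1 mouse.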
